A study of Homo sapiens with 22 samples.

Results

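S100 proteins are small calcium-binding proteins, and 10 of their genes were detected well enough in cultured human melanoma cells to be followed here: S100B, S100A1, S100A2, S100A3, S100A4, S100A6, S100A10, S100A11, S100A13 and S100A16. They were taken by symbol and are 10 of the 33538 genes in the table of the first WM989 experiment and of the 36601 genes in the tables of the other single-cell experiments. All 10 passed the filters used in every comparison, so none had to be left out. Levels are UMI (unique molecular identifier) counts summed over the cells of a group and divided by the group's total and scaled as CPM, the usual library-size unit. The 10x 3' assay counts molecules by their ends, so these levels do not scale with transcript length.

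The cells were WM989, a BRAF-mutant melanoma line used as a clone that had passed through single-cell bottlenecks, and WM983B, another melanoma line used as a clone of the same kind. The authors assigned each cell to a drug-susceptible state or to a primed state, rare in WM989, from which cells more often survive targeted therapy. The first WM989 experiment was 1 sample of untreated cells that carried lineage barcodes, in 8 channels (1 to 4 in replicate r1, 5 to 8 in r2). Part of these cells descended from wells sorted for high EGFR and NGFR, and channels loaded from 1 well share it, so channels are not independent cultures. WM983B was 1 library of untreated cells. In the treatment experiment, barcoded WM989 cells of a well were split over untreated, TGFB1 (the cytokine), TGFBRi (a TGF-β receptor inhibitor) and PI3Ki (a PI3K inhibitor) plates, in replicates r1 and r2, with 2 libraries a group. The sample labels of this experiment name a Mix and a Primed culture for each treatment, and the cell labels name r1 and r2, so r1 and r2 may also differ in the cells they started from. ATAC-seq was made of WM989 cells sorted as EGFR_High, NGFR-High, EGFR-NGFR-High or Mix, with 3 libraries each. The ATAC-seq methods describe a population negative for both markers and do not use the label Mix. The Western blot methods use mixed for all live cells. Whether the Mix libraries were marker-negative or unselected cells is not settled here.

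S100 proteins carry a pair of EF-hand motifs and mostly act as dimers that open on calcium binding and then hold a partner protein. S100B is the best known of them in melanocytic cells, where it is a tissue and blood marker of melanoma, and it also binds p53. S100A4 and S100A6 are linked to cell movement and growth, and S100A10 and S100A11 pair with the annexins A2 and A1 at membranes. Except for S100B on chromosome 21, all these genes lie on chromosome 1q21 in a cluster.

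In hg38, S100B spanned chr21:46598604-46605208 on the minus strand. The other 9 genes lay between position 151982915 (S100A10) and position 153632039 (S100A1) of chromosome 1, and S100A1 alone of these 9 was on the plus strand. S100A3 (chr1:153547329-153549258) lay inside the span of S100A4 (chr1:153543613-153550136) on the same strand, so counts of the pair cannot be assigned with full certainty. S100A13 and S100A1 overlapped on opposite strands, and S100A6 and S100A11 were each overlapped by an antisense gene.

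Promoter windows from RefSeq (GRCh38.p14, from 250 bases before to 50 after a start) were available for 9 of the 10 genes and not for S100B. Those below are shown because the chromatin at the S100A3 start differed between sorts, because S100A4 is its neighbour and the gene whose RNA changed in most comparisons, because S100A6 was the most abundant member, and because S100A2 held the only other AP-1 match. Each is written 5' to 3' on the minus strand, with matches to the AP-1 motif (TGANTCA, searched on both strands) or to an E-box form (CANGTG) in capitals.
S100A3, chr1:153549209-153549508: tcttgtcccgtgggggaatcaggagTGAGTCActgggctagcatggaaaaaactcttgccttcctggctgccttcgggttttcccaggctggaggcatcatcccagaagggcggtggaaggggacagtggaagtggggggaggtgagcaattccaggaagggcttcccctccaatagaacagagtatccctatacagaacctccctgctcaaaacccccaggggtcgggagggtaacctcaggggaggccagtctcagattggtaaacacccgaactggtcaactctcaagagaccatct
S100A2, chr1:153565795-153566094: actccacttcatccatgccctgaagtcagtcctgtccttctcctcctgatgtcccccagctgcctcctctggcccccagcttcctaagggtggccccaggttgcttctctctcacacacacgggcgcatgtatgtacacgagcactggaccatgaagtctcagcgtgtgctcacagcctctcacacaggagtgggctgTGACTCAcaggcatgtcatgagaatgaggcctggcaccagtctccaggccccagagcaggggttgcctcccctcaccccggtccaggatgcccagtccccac
S100A4, chr1:153545757-153546056: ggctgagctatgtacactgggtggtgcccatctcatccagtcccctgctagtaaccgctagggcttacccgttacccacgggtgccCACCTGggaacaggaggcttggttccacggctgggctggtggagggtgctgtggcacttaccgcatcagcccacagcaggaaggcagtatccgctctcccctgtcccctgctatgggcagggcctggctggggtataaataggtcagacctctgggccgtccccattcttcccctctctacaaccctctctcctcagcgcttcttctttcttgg
S100A6, chr1:153535942-153536241: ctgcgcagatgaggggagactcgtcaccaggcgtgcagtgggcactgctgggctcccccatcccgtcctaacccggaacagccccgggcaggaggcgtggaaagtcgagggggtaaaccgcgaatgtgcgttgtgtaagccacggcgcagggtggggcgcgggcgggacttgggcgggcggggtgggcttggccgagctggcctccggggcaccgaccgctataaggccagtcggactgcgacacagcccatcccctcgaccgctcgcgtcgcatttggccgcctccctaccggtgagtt
S100A3 and S100A2 each held 1 AP-1 match, and 7.71% of all 35116 promoter windows held at least 1. S100A4 held 1 E-box match, a motif found in 42.0% of windows. S100A6 and S100A10 had 31 and 32 CG pairs in their 300 bases and S100A11 had 22, against a median of 14 over all windows. S100A1, S100A3 and S100A4 had 6, 5 and 8. A match is a run of letters and not evidence that a factor binds there.

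The 3 single-cell tables held 12531, 1449 and 40021 cells. Channels of the first experiment had 35882876 to 177318308 UMIs, the WM983B library had 102738398, and the libraries of the treatment experiment had 70239657 to 122420544. Median UMIs per cell were 58253 in primed and 52835 in drug-susceptible cells of the first experiment, and 11211 and 16825 in the treatment experiment. In the first and the treatment experiment, 0.152% and 0.487% of cell barcodes occurred in more than 1 channel or library. Of 7 melanocytic markers, 6 could be compared in the first experiment and all 6 (SOX10, MITF, PMEL, MLANA, TYR and DCT) were lower in primed cells, and the primed markers EGFR, AXL, NGFR and NT5E were higher, 4 of 4. No leukocyte or keratinocyte marker reached 20 CPM there, and KRT5 had 0 UMIs. Of the fibroblast and endothelial markers, PDGFRA (47.3 against 0.734 CPM) and PECAM1 (22.8 against 0.183 CPM) were higher in primed cells and LUM (16.9 against 32.2 CPM) was not, while COL1A2 was at 1.97 and 0.356 CPM and CDH5 had 1 and 2 UMIs.

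The first question was how S100 levels differ between the states in untreated WM989 cells. Since the authors derived the states by clustering this table, and the experiment is 1 sample, the values describe the cells and carry no test. A gene was called where its CPM differed at least 2-fold between states in both r1 and r2. In the primed cells, 7 of the 10 genes were called higher (S100A2, S100A3, S100A4, S100A6, S100A11, S100A13 and S100A16) and 1 lower (S100B), while 9.07% of the 6316 genes with at least 20 CPM in a state were called higher and 5.89% lower. S100A2, S100A3 and S100A4 reached 20 CPM in the primed state alone, so they entered the comparison through the state in which they were high. Together the 10 genes made up 1.59% of the UMIs of primed cells and 0.374% of those of drug-susceptible cells.

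S100B, the melanocytic member, had a lowest, median and highest level of 428, 538 and 873 CPM over the 8 channels in drug-susceptible cells. In primed cells these were 26.5, 86.3 and 152 CPM. The states did not overlap in any channel, and the pooled level was 8.15-fold lower in primed cells (counting interval 8.01 to 8.29), with 6.37-fold in r1 and 12.1-fold in r2. A median drug-susceptible cell held 25 S100B UMIs (quartiles 15 and 41) and a median primed cell 2 (quartiles 1 and 4).

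S100A1, a regulator of calcium handling best known in muscle, was also lower in the primed cells of all 8 channels, at 63.0, 124 and 216 CPM against 124, 312 and 466 CPM. The ranges overlapped because the replicates differed: drug-susceptible cells had 422 to 466 CPM in the r1 channels and 124 to 203 CPM in the r2 channels. Within each replicate the states did not overlap. The fold was 2.52 in r1 and 1.98 in r2, just short of the 2-fold rule.

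S100A6 (calcyclin) was the most abundant member in both states. Its lowest, median and highest levels were 1351, 1567 and 2053 CPM in drug-susceptible cells and 7897, 11392 and 12495 CPM in primed cells. The ratio of the pooled levels was 7.83, with 7.64 in r1 and 8.06 in r2. Within single channels the ratio ran from 5.24 to 8.15. In the r2 channels it ran from 6.08 to 7.17, so the pooled r2 value lay above each of them. Pooled sums draw primed and drug-susceptible cells from the channels in unequal shares. Per cell, the median was 64 UMIs (quartiles 39 and 105) in the drug-susceptible state and 578 (quartiles 289 and 1098) in the primed state.

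S100A3 and S100A4 had the largest ratios of the pooled levels. In channels 1 and 2 S100A6 was above both, at 8.15 and 7.47 against 3.88 and 4.59 for S100A4. Primed cells made up 56.9% and 62.4% of channels 1 and 2 and 79.7% and 76.9% of channels 5 and 6. In the other channels they made up 6.85% to 9.42%. S100A4, which binds non-muscle myosin and is named for metastasis, ran from 13.6 through 19.0 to 39.6 CPM in drug-susceptible cells and from 126 through 164 to 181 CPM in primed cells, a ratio of 8.99. S100A3, known from the hair cuticle, ran from 2.05 through 3.46 to 9.73 CPM and from 19.0 through 29.0 to 32.8 CPM, a ratio of 8.84. Both were higher in the drug-susceptible cells of channels 1 and 2 than of channels 3 and 4 (S100A4 39.6 and 37.1 against 17.1 and 17.6 CPM), and the ratio of S100A3 was 3.37 and 3.52 in channels 1 and 2 and 6.02 to 11.6 in the other 6. S100A2, a p53-binding member of epithelia, went from 7.01 CPM in the drug-susceptible state to 39.3 CPM in the primed state.

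S100A13, which takes part in the release of FGF1 and IL1A, was at 1142, 1400 and 1971 CPM in primed channels and at 238, 316 and 438 CPM in drug-susceptible channels, a pooled ratio of 4.85. S100A16, a widely expressed member, had a pooled ratio of 4.44 (125 against 28.2 CPM). S100A11 had a ratio of 2.33 (1063 against 457 CPM) and S100A10, the member that no longer binds calcium, one of 1.88 (933 against 497 CPM), which missed the rule although its channels did not overlap (772 to 1044 against 427 to 598 CPM). Within single channels the ratio of S100A11 ran from 1.69 to 2.54, and it was under 2-fold in channels 3 and 4 (1.69 and 1.96). That of S100A10 ran from 1.43 to 1.85, so its pooled ratio lay above every channel. In all, 9 of the 10 genes had no overlap between the states over the 8 channels, 8 of them higher and 1 lower in primed cells. Of all 6316 genes compared, 14.1% were higher and 16.2% lower in primed cells with no overlap.

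**Figure D1:**
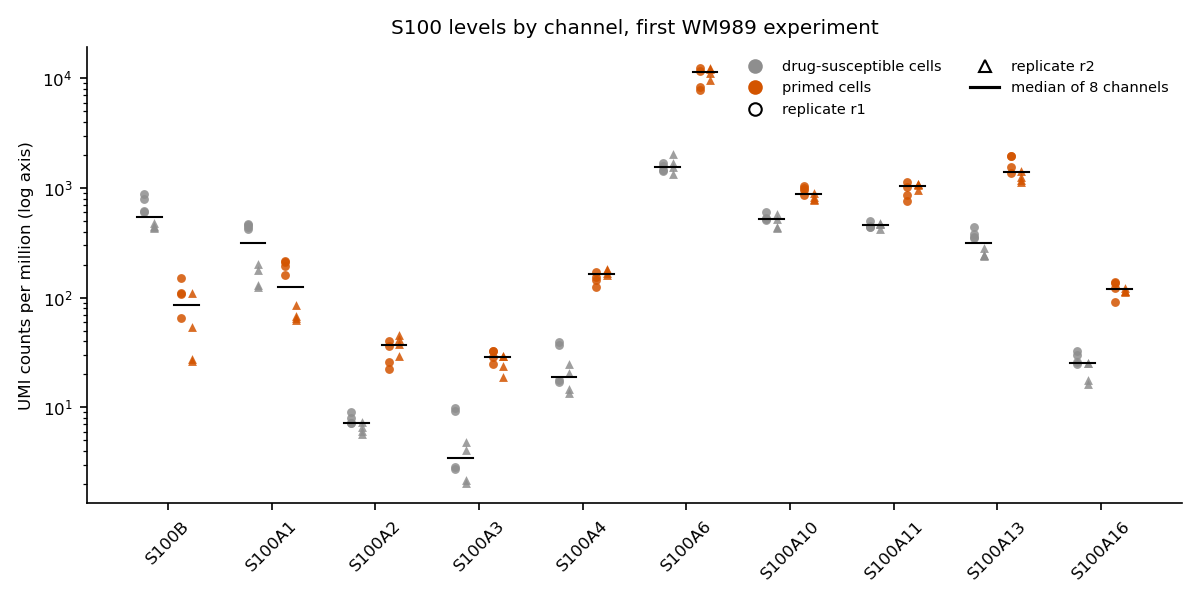
Points give the level of each S100 gene in CPM (log axis) in each of 8 channels of the first WM989 experiment, for drug-susceptible cells (grey) and primed cells (orange), with circles for r1, triangles for r2 and a bar at the median of the 8. The states overlap for S100A1, where drug-susceptible r2 channels (124 to 203 CPM) sit among the primed r1 channels, and for none of the other 9 genes.

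The cell cycle differs between these states (73.7% of primed and 25.5% of drug-susceptible cells were in G1), so the counts were repeated in G1 cells, where 8 genes were called (9.06% of all genes higher and 5.99% lower). In G1, S100B stood at 73.4 CPM in the primed and 693 CPM in the other state, and S100A6 at 12097 and 1647 CPM. With TMM factors all log2 ratios shifted by -0.18 and 9 genes were called (7.39% of all genes higher and 7.92% lower).

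The deposited cell table divides the cells into clusters numbered 0 to 10. Primed clusters 2 and 9 had the lowest S100B (47.8 and 37.0 CPM) and the highest S100A6 (12767 and 11532 CPM). Primed cluster 8 lay between them and the rest, with 204 CPM of S100B and 8685 CPM of S100A6. Its S100B level was 279 CPM in r1 and 89.9 CPM in r2. Among the drug-susceptible clusters, cluster 4 stood out with 1013 CPM of S100B, against 446 to 559 CPM in the other 7, and it also had the most S100A4 (41.8 CPM) and S100A3 (7.20 CPM) of these clusters.

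Over these clusters S100B and S100A1 followed each other, with Pearson r of 0.984 between their log2(CPM + 1) values (11 clusters, described with no test, since clusters share libraries and were made from these counts). Each had a negative r with all of the other 8 genes, from -0.777 to -0.956. Those 8 had r of 0.836 to 0.994 among themselves, highest for S100A6 with S100A13. All 8 were higher and S100B and S100A1 lower in primed cells, so these r values carry the state contrast already described. How high r runs between other genes is not given here. Of 7021 genes that reached 20 CPM in some cluster, the pattern of S100B was most like those of CHL1 (0.988) and FABP7 (0.986), and that of S100A1 most like RAMP1 and LAMA4 (both 0.990). The nearest genes were FGFR1 (0.991) and S100A4 (0.989) for S100A3, S100A3 (0.989) and FN1 (0.988) for S100A4, TMEM255B (0.997) and CTSB (0.996) for S100A6, PLP2 (0.991) and TAGLN2 (0.988) for S100A2, and S100A6 and CDH13 (both 0.994) for S100A13. For S100A10 they were RTN2 and CALD1 (both 0.985), for S100A11 PTX3 (0.992) and CCND1 (0.991), and for S100A16 VDR (0.989) and RGS17 (0.988).

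**Figure D2:**
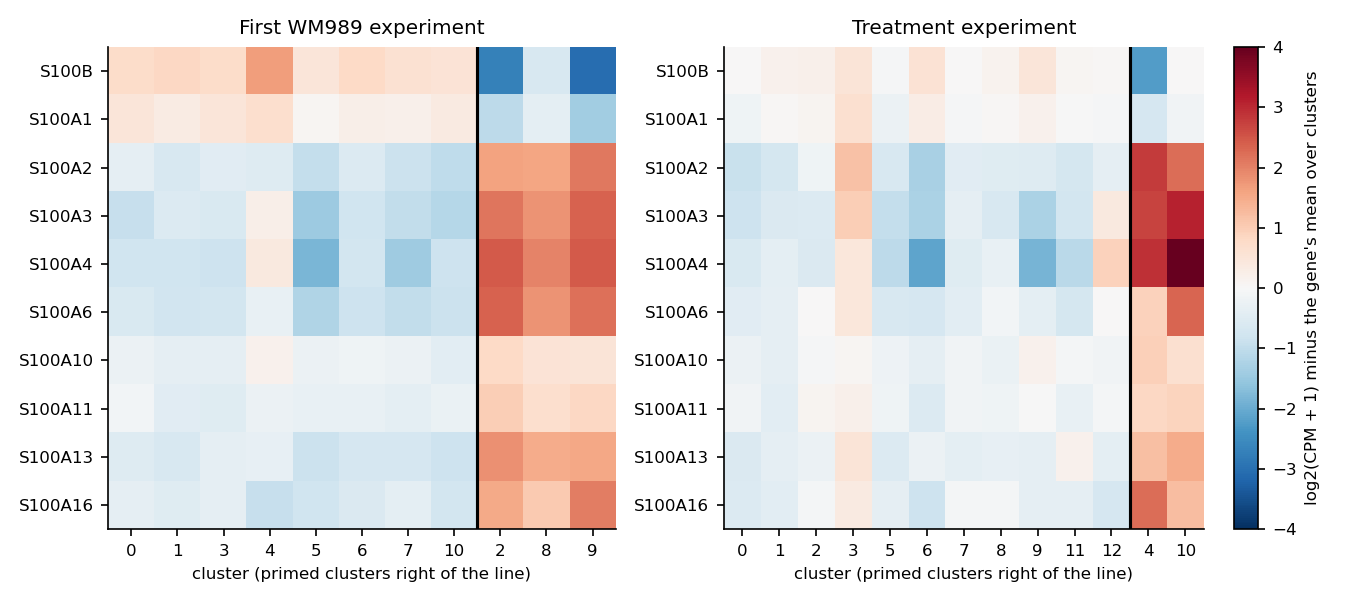
Colours give log2(CPM + 1) of each S100 gene in each cluster minus that gene's mean over the clusters of its experiment, with drug-susceptible clusters left and primed clusters right of the black line. S100B is lowest in primed clusters 2 and 9 of the first experiment and in primed cluster 4 of the treatment experiment (109 CPM), while primed cluster 10 of the latter has 522 CPM, within the drug-susceptible range.

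WM983B showed a smaller contrast, and S100B was not lower in its primed cells. Of 6 melanocytic markers compared, 3 (PMEL, MLANA and DCT) were at least 2-fold lower in primed cells. SOX10 (ratio 0.921), TYR (0.840) and MITF (0.502) were not. Of the primed markers AXL, NGFR and NT5E were higher, and EGFR did not reach 20 CPM. With 1 library there is no replicate check, and the intervals cover counting error only. S100B was at 1039 CPM (1030 to 1048) in 731 primed cells and 771 CPM (764 to 779) in 718 drug-susceptible cells, a ratio of 1.35. S100A1 had a ratio of 0.923, and in G1 cells alone its direction turned. Only S100A2 (3.17), S100A3 (2.74) and S100A4 (2.40) passed the 2-fold rule, which 1.30% of 6856 genes passed upwards and 0.686% downwards. These 3 genes were the least abundant members in primed WM983B cells (75.2, 54.4 and 45 CPM), and S100A3 and S100A4 were below 20 CPM in the drug-susceptible cells. S100A6 had a ratio of 1.61 (4789 against 2977 CPM), and S100A10, S100A11, S100A13 and S100A16 had ratios of 1.15 to 1.28. In drug-susceptible cluster 3, S100A2, S100A3, S100A4 and S100B (53.0, 46.9, 43.2 and 1003 CPM) were closer to primed cluster 0 (75.5, 57.0, 45.4 and 1028 CPM) than to drug-susceptible cluster 1 (19.0, 15.5, 14.8 and 734 CPM). Cluster 3 held 90 cells, of which 4.44% were in G1, against 35.6% in cluster 0 and 32.5% in cluster 1. Whether phase accounts for these levels was not tested.

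In the treatment experiment the state contrast of the same 10 genes could be read in 8 libraries. A gene was called where it differed at least 2-fold in every library. S100A2, S100A3 and S100A4 met this (3 of 10), against 2.95% of 6138 genes called higher and 0.489% called lower, and all 3 reached 20 CPM in the primed state alone. S100A4 was at 8.72 and 8.60 CPM in drug-susceptible and 282 and 290 CPM in primed cells of the 2 untreated libraries, and its ratio ran from 8.29 to 47.8 over the 8 libraries. S100A3 was at or below 3.01 CPM in the drug-susceptible cells of every library, and its primed level in PI3Ki r2 rested on 3 UMIs in 70 cells. With cluster 10 as the only primed cluster, S100A4 alone was called, where 1.31% of all genes were higher and 0.0649% lower. With all primed cells, 2 of 6 melanocytic markers compared (PMEL and MLANA) were called lower and 3 of 3 primed markers (AXL, NGFR and NT5E) higher.

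S100B did not repeat the contrast of the first experiment in untreated cells. It was at 394 and 404 CPM in the primed cells of the untreated libraries and at 482 and 546 CPM in their drug-susceptible cells, ratios of 0.817 and 0.741. Under TGFB1 the ratios were 0.182 and 0.205, and under TGFBRi and PI3Ki they were 0.863 to 0.930. S100A6 went the other way, with ratios of 6.06 and 6.38 in untreated, 7.11 and 8.01 in TGFBRi, 3.59 and 5.06 in PI3Ki and 1.53 and 1.71 in TGFB1 libraries. S100A16 was at least 2-fold higher in primed cells in all libraries but PI3Ki r2, where its ratio was 1.99.

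**Figure D3:**
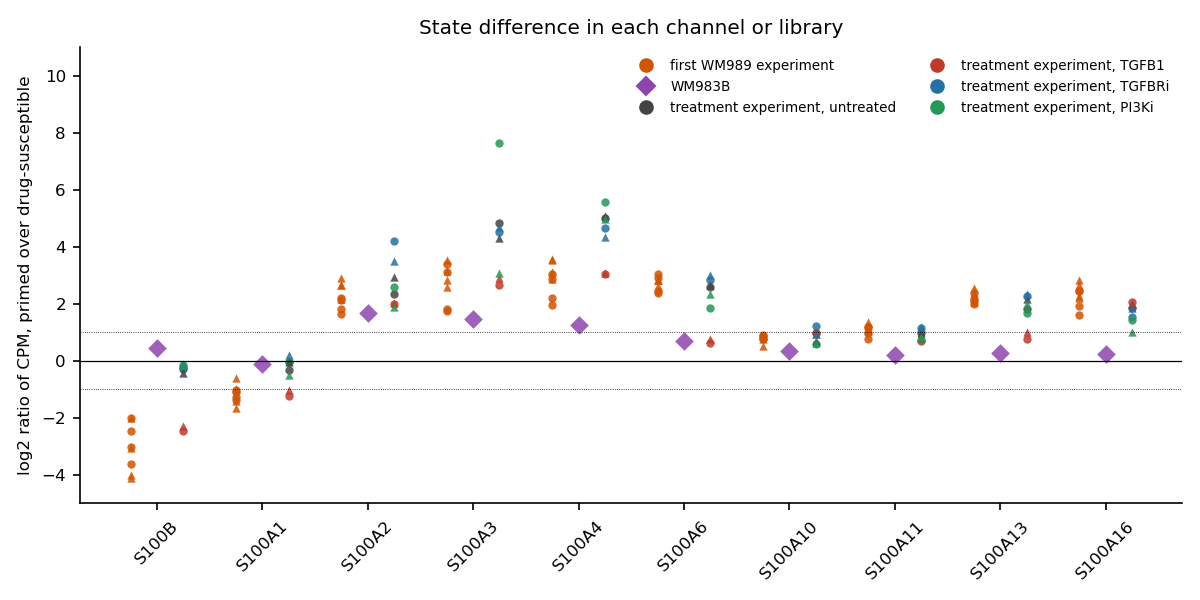
Each point is the log2 ratio of CPM between primed and drug-susceptible cells in 1 channel or library, with orange for the first WM989 experiment, purple diamonds for WM983B and, for the treatment experiment, grey, red, blue and green for untreated, TGFB1, TGFBRi and PI3Ki (triangles, r2). Dotted lines mark a 2-fold difference. S100A2, S100A3 and S100A4 lie above the upper line in all channels and libraries, and S100B lies far below the lower line in the first experiment and in the TGFB1 libraries alone.

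The primed cells of the treatment experiment fell into 2 clusters. Untreated, TGFBRi and PI3Ki primed cells were mostly in cluster 10 (88.0% to 100% in each library), and TGFB1 primed cells were mostly in cluster 4 (98.2% in r1 and 97.1% in r2). The clusters differed in NGFR (10.2 CPM in cluster 4 and 102 in cluster 10), AXL (42.9 and 18.3) and SOX10 (29.9 and 78.8). S100B was at 109 CPM in cluster 4 and 522 CPM in cluster 10, S100A6 at 5345 and 14006 CPM, and S100A4 at 114 and 261 CPM. S100A2 (121 and 81.1 CPM) and S100A16 (207 and 102 CPM) had the opposite order. Primed cells made up 2.26% and 4.47% of the untreated libraries, 29.1% and 31.3% of the TGFB1 libraries, 2.26% and 4.32% of the TGFBRi libraries and 0.647% and 1.21% of the PI3Ki libraries.

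The next question was how each treatment changed S100 levels. Counts were summed per library and tested against the untreated libraries with edgeR's quasi-likelihood test, with replicate as a term and Benjamini-Hochberg adjustment over all genes. These sums mix the states, so a change over all cells holds both more or fewer primed cells and other levels per cell, and the untreated libraries are shared by the 3 comparisons.

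TGFB1 raised S100 levels broadly. Over all cells, 9 of the 10 genes rose, against 16.3% of 18389 genes higher and 12.7% lower, with a median log2 change of 0.77 for the 10 genes and 0.01 for all genes. S100A2 went from 10.8 and 10.5 CPM to 56.6 and 50 CPM, a log2 change of 2.31 (SE 0.10, adjusted p = 2.84e-14). S100A3 changed by 2.28 (SE 0.16), S100A16 by 1.35 (SE 0.08), S100A4 by 1.34 (SE 0.08) and S100A13 by 0.96 (SE 0.08). S100A6, S100A11, S100A1 and S100A10 rose by 0.59 to 0.33. S100B was at 481 and 541 CPM without and 502 and 521 CPM with TGFB1 (log2 -0.01, SE 0.07, adjusted p = 0.945). The calls of S100A1 and S100A10 were each lost in 3 of 13 alternatives, among them without TGFB1 replicate 1, and the other 7 in none.

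Within the drug-susceptible cells 9 genes were also higher under TGFB1, where 8.56% of 17914 genes were higher and 6.32% lower. S100A2 (10.1 and 8.71 CPM untreated, 32.2 and 27.8 CPM with TGFB1) rose by 1.66 (SE 0.10) and S100A3 by 1.57 (SE 0.20). S100A13 rose by 0.78 (SE 0.09), from 422 and 385 CPM to 768 and 634 CPM. S100A1 rose by 0.57 (SE 0.09), or 0.37 without TGFB1 replicate 1, and S100B by 0.32 (SE 0.07, adjusted p = 0.00443), a call lost without the replicate term and when any 1 of 3 libraries was left out. S100A11 (0.27, SE 0.08) was lost in the same 4 settings, with a log2 change of 0.15 without TGFB1 replicate 1. S100A4, S100A6 and S100A16 were the remaining genes called higher, and they kept their calls in all 13 alternatives. S100A10 had a log2 change of 0.05 (SE 0.08) in these cells.

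The drug-susceptible cells also shifted between clusters. Cluster 3 held 56.8% and 42% of them in the TGFB1 libraries and 1.38% and 1.67% in the untreated ones, so treatment and cluster cannot be told apart in these sums. Cluster 1 held 15.3% to 21.4% of the drug-susceptible cells of every library. Within it S100A2 was at 8.40 and 7.01 CPM untreated and 24 and 20.4 CPM with TGFB1, and S100A13 was at 403 and 371 CPM and at 730 and 601 CPM. These values cover cluster 1 and the genes S100A2 and S100A13 only, and were not tested.

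The primed cells gave another picture. Under TGFB1, 2 of the 10 genes were higher and 3 lower in them, against 6.21% and 7.09% of 10930 genes. S100B was at 394 and 404 CPM in untreated and 115 and 135 CPM in TGFB1 primed cells, a fall of 1.60 on the log2 scale (SE 0.12, adjusted p = 1.68e-13). S100A6 fell by 1.31 (SE 0.15), from 13978 and 14026 CPM to 5228 and 5497 CPM, and S100A4 fell by 1.27 (SE 0.13), from 282 and 290 CPM to 111 and 115 CPM. S100A2 rose by 1.07 (SE 0.15), from 51.4 and 66.0 CPM to 129 and 112 CPM, and S100A16 by 0.80 (SE 0.14), from 125 and 123 CPM to 224 and 186 CPM. S100A16 lost its call without TGFB1 replicate 1 (adjusted p = 0.0738), and the other 4 kept theirs in all 12 alternatives. The state labels came from the same counts, and nearly all TGFB1 primed cells were in cluster 4, so treatment and cluster cannot be told apart in these sums.

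The few TGFB1 primed cells in cluster 10 (29 in r1 and 51 in r2) give values within that cluster. Their S100A6 was at 5754 and 8452 CPM, against 14559 and 13986 CPM in untreated cluster 10 cells, and their S100A4 was at 98.2 and 81.2 CPM against 283 and 284 CPM. Their S100B was at 500 and 1011 CPM against 421 and 414 CPM. Cluster 4 in turn held 5 and 6 untreated cells. S100B in those was at 60.3 and 168 CPM (6 and 16 UMIs), against 108 and 110 CPM in TGFB1 cells of cluster 4. Their S100A4 was at 271 and 441 CPM (27 and 42 UMIs) against 111 and 116 CPM. Their S100A6 was at 6720 and 15013 CPM against 5218 and 5413 CPM. These values were not tested, and the cluster label was made from the same counts.

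**Figure D4:**
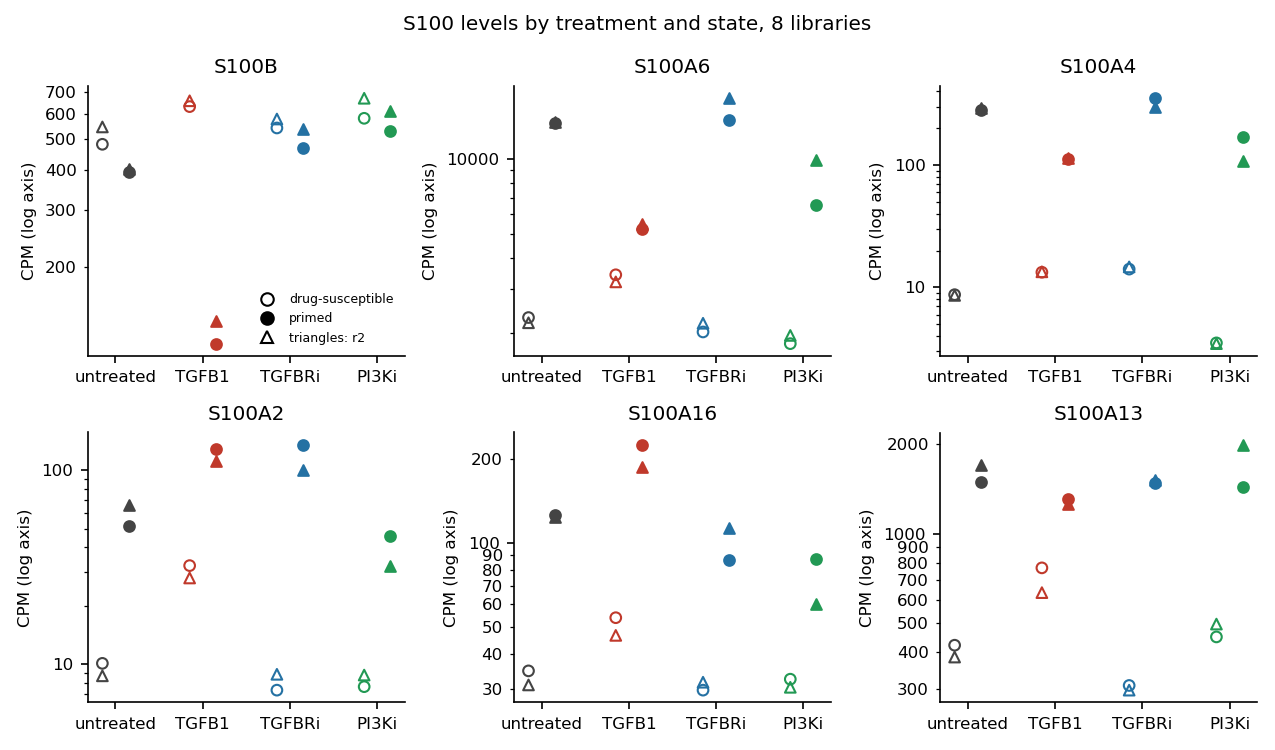
Each panel gives 1 gene in CPM (log axes that differ between panels) in the 8 libraries, by treatment, with open symbols for drug-susceptible and filled symbols for primed cells, circles for r1 and triangles for r2. TGFB1 raises S100A2, S100A13 and S100A16 in drug-susceptible cells, while in primed cells S100B (115 and 135 CPM), S100A6 and S100A4 are lower with TGFB1 than without. PI3Ki lowers S100A4 in both states.

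Whether the state contrast itself changed was tested as an interaction of state and treatment, with the library as a term. Primed cells lay mostly in cluster 4 under TGFB1 and in cluster 10 without it, so treatment and cluster cannot be told apart here either. Under TGFB1 the contrast changed for 8 of 10 genes (1 higher, 7 lower), against 5.49% of 18502 genes higher and 4.49% lower, with medians of -0.86 for the 10 genes and 0.04 for all. S100B changed most, by -1.83 (SE 0.10), followed by S100A4 at -1.80 (SE 0.10), S100A6 at -1.77 (SE 0.10), S100A3 at -1.57 (SE 0.28), S100A13 at -0.94 (SE 0.09) and S100A1 at -0.79 (SE 0.09). For S100B and S100A1, lower in untreated primed cells, a negative value means a wider gap between the states. For S100A4, S100A6, S100A3 and S100A13, higher in untreated primed cells, it means a narrower one. S100A2 (-0.52) and S100A10 (0.29) lost their calls in 5 and 6 of 12 alternatives, and DESeq2 called 5 genes. This fit gave all genes 1 common spread, so neither its calls nor its adjusted p-values (3.47e-78 for S100B) reflect the spread of single genes. With library totals in place of TMM the median of all genes moved by -0.17, and the whole table turned from 1015 higher and 831 lower to 387 higher and 1350 lower, and among the 10 genes S100A10 (0.11) lost its call and S100A11 (-0.25) gained one, for 0 higher and 8 lower.

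With TGFBRi, over all cells S100A4 (log2 0.56, SE 0.08) and S100A3 (0.77, SE 0.18) were higher and S100A13 (-0.35, SE 0.08) and S100A1 (-0.37, SE 0.09) lower, where 1.10% of genes were higher and 1.45% lower. These 4 kept their directions but lost their calls without the replicate term (adjusted p = 0.0818 to 0.378), and S100A4 alone kept its call without untreated replicate 1. In G1 cells edgeR did not call S100A4 (0.31, adjusted p = 0.209), S100A3 (0.75, adjusted p = 0.275) or S100A13 (-0.35, adjusted p = 0.0627). DESeq2 did not call S100A13 (adjusted p = 0.243) or S100A1 (adjusted p = 0.310), and S100A3 was at 0.39 without TGFBRi replicate 2. In drug-susceptible cells S100A4 was higher (0.75, SE 0.08), from 8.72 and 8.60 CPM to 14.1 and 14.7 CPM, in all 13 alternatives, and S100A13 (-0.40) and S100A1 (-0.38) were lower, against backgrounds of 1.22% and 1.59%. S100A1 lost its call in 5 and S100A13 in 3 of 13 alternatives, both with DESeq2, without the replicate term and without untreated replicate 1. S100A10 had a log2 change of -0.29 (SE 0.08, adjusted p = 0.0515) in these cells and passed in 7 of 13 alternatives, among them DESeq2 (0.0238) and library totals (0.00249). In primed cells 1 gene, S100A2, was higher (0.91, SE 0.16), at 135 and 99.5 CPM against 51.4 and 66.0 CPM, where 0.0732% of genes were higher and 0.302% lower. This call was lost without untreated replicate 1 (adjusted p = 0.334). The state contrast under TGFBRi changed for S100A2 (1.09, SE 0.15), S100A4 (-0.56, SE 0.11) and S100A13 (0.33, SE 0.09), with 0.238% of genes higher and 0.313% lower. Without the library term these calls were lost, and edgeR then called 4 genes in the whole table. S100A13 lost its call in 8 of 12 alternatives and S100A4 in 3, DESeq2 and the fit without TGFBRi replicate 2 included.

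PI3Ki lowered S100A4 and S100A3. Over all cells S100A4 fell by 1.76 (SE 0.09, adjusted p = 1.14e-11), from 13.4 and 17.3 CPM to 4.19 and 4.30 CPM, and S100A3 fell by 1.93 (SE 0.25), from 1.11 and 1.71 CPM to 0.285 and 0.392 CPM. S100A6 fell by 0.30 (SE 0.09). S100B (0.39, SE 0.07), S100A1 (0.35, SE 0.09) and S100A13 (0.25, SE 0.08) rose, so that 3 genes rose and 3 fell, against 5.83% and 6.83% of all genes. The calls of S100A3 and S100A4 held in all 13 alternatives. The other 4 did not, and without PI3Ki replicate 2 the number called was 2. Scaling by library totals moved the median of all genes by -0.10 and the table from 1072 higher and 1256 lower to 560 higher and 2963 lower. Of the 10 genes, 2 were then higher and 5 lower, since S100A13 lost its call and S100A2 (-0.34) and S100A10 (-0.25) gained one.

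In drug-susceptible cells under PI3Ki, S100A4 fell by 1.21 (SE 0.09), from 8.72 and 8.60 CPM to 3.52 and 3.47 CPM, and S100A3 fell by 1.58 (SE 0.28), while S100B, S100A1 and S100A13 rose by 0.38, 0.35 and 0.33 (5.89% of genes higher, 6.22% lower). These 3 calls were lost without PI3Ki replicate 2 (log2 0.30, 0.21 and 0.14), and those of S100A1 and S100A13 also with DESeq2, without the replicate term and without untreated replicate 2, while S100A3 and S100A4 kept theirs in all 13 alternatives. Library totals turned the table from 1056 higher and 1114 lower to 584 higher and 2825 lower, and S100A6 (-0.26) and S100A10 (-0.23) were then called lower as well. The change of S100A3 rests on 11 and 45 UMIs in the PI3Ki libraries and was -2.41 without PI3Ki replicate 2. Cluster 6 held 28.8% and 19.9% of the drug-susceptible cells in the PI3Ki libraries and 3.18% and 1.11% in the untreated ones, so treatment and cluster cannot be told apart in these sums. Within cluster 1 S100A4 was at 8.19 and 11.3 CPM untreated and 4.19 and 3.08 CPM with PI3Ki, which was not tested. In primed cells under PI3Ki 3 genes fell, against 0.467% of genes higher and 1.32% lower: S100A4 by 1.22 (SE 0.17), from 282 and 290 CPM to 168 and 108 CPM, S100A6 fell by 0.85 (SE 0.15), to 6504 and 9908 CPM, and S100A16 fell by 0.91 (SE 0.22), to 87.6 and 60.1 CPM. The sums rest on 25 primed cells in r1 and 70 in r2. S100A6 lost its call without untreated replicate 1 (adjusted p = 0.0963) and S100A16 without PI3Ki replicate 2 (0.444), untreated replicate 2 (0.0739) or the replicate term (0.0621). The state contrast under PI3Ki was smaller for S100A6 (-0.69, SE 0.10), S100A16 (-0.97, SE 0.19) and S100A10 (-0.38, SE 0.11), with 0.351% of genes higher and 0.859% lower. Without the library term these calls were lost too, and 7 genes of the whole table were called. Library totals turned the table from 65 higher and 159 lower to 156 higher and 54 lower, moving its median by 0.16, and S100A10 lost its call there (-0.22, adjusted p = 0.447), as in 8 of 12 alternatives in all. S100A16 also lost its call without PI3Ki replicate 2, and S100A6 was at -0.43 without PI3Ki replicate 1. For S100A4 it did not pass (-0.05, SE 0.17).

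The chromatin comparison asked whether the starts of these genes were more or less open in sorted cells. Values are the fold enrichment of MACS2 peaks in regions merged over libraries, tested with limma on log2(fold enrichment + 1). All 10 genes had a region at a start, 12 in all and 11 distinct, since S100A1 and S100A13 share 1. The level was high in every sort for most of them. S100B had 86.5, 87.7 and 94.9 in Mix, 71.7 to 79.9 in EGFR_High, 96.7 to 104 in NGFR-High and 79.9 to 107 in EGFR-NGFR-High. The region shared by S100A1 and S100A13 had 70.2 to 85.1 in Mix and 59.2 to 65.2 in EGFR_High. Both lay wholly below Mix in EGFR_High, and limma called neither (adjusted p = 0.478 and 0.326). In NGFR-High the regions of S100B, S100A6 and S100A11 and the second region of S100A13 lay wholly above Mix. Limma called none of these either (adjusted p = 0.35 to 0.736). The share of all regions with no overlap between a sort and Mix is not given here. S100A2 had 85.6 to 99.2 in Mix and 79.3 to 107 in the other sorts. S100A10 had 48.5 to 54.7 in Mix and 52.9 to 74.7 in the other sorts, and S100A11 had 43.6 to 47.1 and 34.0 to 57.7. S100A6, whose RNA differed most in absolute level, had 32.3, 25.9 and 28.6 in Mix and 40.2, 30.2 and 40.2 in EGFR-NGFR-High (log2 0.33, SE 0.17, adjusted p = 0.279).

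The start of S100A3 (chr1:153548674-153549966, the region of the first promoter printed above) was the exception. This region also lay inside the span of S100A4, close to the 5' end of that span (153550136), so it cannot be assigned to S100A3 alone. Its fold enrichment was 7.17, 7.54 and 9.68 in Mix, 18.4, 13.7 and 16.2 in EGFR_High, 27.0, 22.7 and 19.7 in NGFR-High and 42.3, 26 and 22.3 in EGFR-NGFR-High. No library of the marker-high sorts overlapped Mix. It was higher in NGFR-High by 1.40 (SE 0.25, adjusted p = 0.0104) and in EGFR-NGFR-High by 1.73 (SE 0.25, adjusted p = 0.00223), 1 of 11 distinct regions in each. Over all 151823 regions, 4.97% were higher and 1.59% lower in NGFR-High, and 6.93% and 1.46% in EGFR-NGFR-High. At regions on start sites the share called was 1.3% and 1.55%. Without NGFR-High replicate 1 the NGFR-High call was lost (adjusted p = 0.0523).

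In EGFR_High the S100A3 start had a log2 difference of 0.90 (SE 0.25, adjusted p = 0.0968), and limma called 0 of the 11 regions, with 1 of them, S100A3, under an unadjusted p of 0.05. There 1.52% of all regions were higher and 1.20% lower, and 0.436% of those at start sites were called. Quantile normalization between libraries, the 50000 highest peaks of each list, or leaving out EGFR-NGFR-High replicate 1 each brought S100A3 past the threshold. The region at the start used for S100A4, the next on the minus strand (chr1:153544591-153546117), had 27.3, 25 and 36.3 in Mix and 44.6, 37.3 and 34.2 in EGFR-NGFR-High (log2 0.39, SE 0.20, adjusted p = 0.282). The GENCODE canonical start of S100A16 (chr1:153613137) had no merged region within 1 kb. The region at its RefSeq start (chr1:153609355) had 56.9, 60.8 and 60.5 in Mix and 66.2 to 92.5 in the other 9 libraries. Its log2 difference was 0.47 (SE 0.14, adjusted p = 0.0848) in NGFR-High and 0.41 (SE 0.14, adjusted p = 0.116) in EGFR-NGFR-High, so it did not pass although Mix overlapped no other sort.

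Of 16 regions between S100A6 and S100A1, 1 was called higher in NGFR-High and 4 in EGFR-NGFR-High, S100A3 included, where 4.97% and 6.93% of all regions were. The others were picked out by this result and hold no start of these genes. A region at chr1:153540704-153541072, between S100A6 and S100A4, had no listed peak in Mix or EGFR_High and 5.95, 8.03 and 4.96 in EGFR-NGFR-High (adjusted p = 0.00925). A second, at chr1:153597166-153597413, had a peak in EGFR-NGFR-High libraries alone (4.46, 5.20 and 4.47), near the lowest values the lists hold. The third, at chr1:153598637-153599213, rose from 4.93, 9.90 and 6.78 in Mix to 16.4 to 25 in EGFR-NGFR-High (log2 1.39, SE 0.31, adjusted p = 0.0241).

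**Figure D5:**
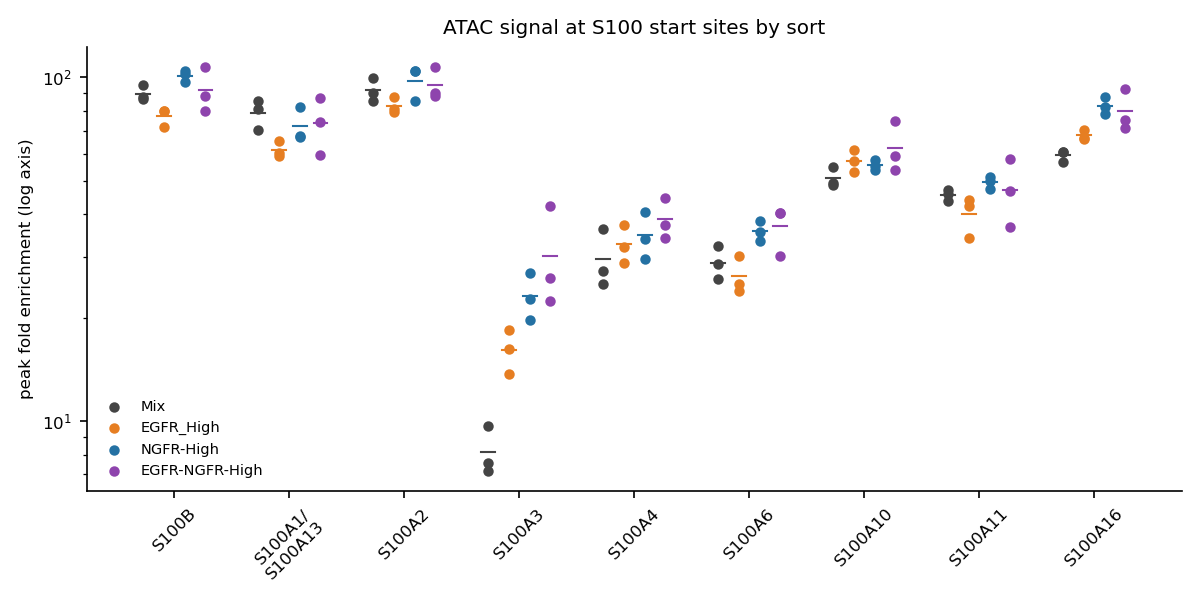
Points give the peak fold enrichment (log axis) at the start region of each S100 gene in 3 libraries of each sort, with a line at the mean. S100A1 and S100A13 share the region plotted for them. At S100A3, Mix libraries (7.17 to 9.68) lie below all others, while for S100B, S100A2 and S100A11 the sorts lie closer together. At S100B, EGFR_High libraries (71.7 to 79.9) lie below Mix (86.5 to 94.9) and NGFR-High libraries (96.7 to 104) above it.

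Of the rest of the family, S100A5, S100A7, S100A7A, S100A8, S100A9, S100A12, S100A14, S100P, S100Z and S100G, none reached 20 CPM in either state of any experiment, so 0 of 10 were compared between states. In the treatment tests over all cells S100A5, with 45 UMIs in primed and 27 in drug-susceptible cells, was the 1 gene of these 10 that passed the filter. It had log2 changes of 1.09 (unadjusted p = 0.0432, adjusted p = 0.117 in edgeR) under TGFB1 and 1.19 (unadjusted p = 0.0273, adjusted p = 0.292) under TGFBRi, and was not called. In the interaction test of state and treatment 2 of these 10 passed the filter, and 0 were called for any treatment. In the list of 26 S100 partners and receptors, 19 could be compared in the first experiment, of which 4 were higher and 1 lower in primed cells, where 9.07% and 5.89% of all genes were. ANXA1, the annexin that S100A11 binds, had a ratio of 33.9 (174 against 5.13 CPM), FGF1, released with S100A13, one of 14.7, and MYH9, the myosin that S100A4 binds, one of 2.72. ANXA11 had one of 2.22. ANXA1 and FGF1 reached 20 CPM in the primed state alone, so they entered through the state in which they were high. MCAM, an adhesion molecule of melanoma cells, was 4.27-fold lower. In primed WM983B cells 2 of 20 were higher, ANXA1 (2.08) and SYT1 (2.90), and 0 lower, against 1.30% and 0.686% of all genes. In the treatment experiment 3 of 19 (ANXA1, AHNAK and FGF1) were called higher and 0 lower, against 2.95% and 0.489%. SYT1 in WM983B, and ANXA1 and FGF1 in the treatment experiment, reached 20 CPM in the primed state alone.

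Under TGFB1, 7 of 24 tested partners rose over all cells and 1 fell, where 16.3% and 12.7% of all genes did, with a median log2 change of 0.02 for the list and 0.01 for all genes. TLR4 had the largest fitted change but too few UMIs for a fold (26 in primed and 10 in drug-susceptible cells of the whole experiment). FGF1 (2.65, SE 0.09) and ANXA1 (2.25, SE 0.16) followed, and MCAM fell by 0.33. In primed cells under TGFB1, where 6.21% of genes were higher and 7.09% lower, 2 of 21 rose, MYH9 (1.18, SE 0.12) and FGF1 (0.56, SE 0.15), and 5 fell, of which MCAM (-1.26), ALCAM (-0.81) and AHNAK (-0.72) changed most. PI3Ki lowered 5 of 24 partners over all cells (5.83% of all genes were higher and 6.83% lower), with ANXA1 (-1.27, SE 0.20), FGF1 (-0.63, SE 0.11) and AHNAK (-0.54, SE 0.06) the most changed. In the TGFBRi comparison edgeR called 0 of 24, where 1.10% of all genes were higher and 1.45% lower. Of the 24, 5 had an unadjusted p under 0.05, and the share of all genes under that level is not given here.

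In the drug-susceptible cells under TGFB1, 6 of 22 partners were higher, led by FGF1 (1.94, SE 0.10), ALCAM (0.89, SE 0.09) and ANXA1 (0.76, SE 0.19), and AHNAK (-0.39, SE 0.06) and ANXA11 (-0.25, SE 0.07) were lower. These counts stand against 8.56% of genes higher and 6.32% lower. The interaction of state and TGFB1 was negative for 6 of 24 partners, most for ALCAM (-1.61), FGF1 (-1.32) and MCAM (-1.16), and positive for MYH9 (0.88), against 5.49% of genes higher and 4.49% lower. For MCAM, which was already lower in primed cells, the negative value means a wider gap between the states.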

How the data were processed

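Single-cell RNA was measured by 10x 3' sequencing in WM989 and WM983B melanoma cells, and open chromatin by ATAC-seq in 12 libraries of sorted WM989 cells. The authors ran Cell Ranger against hg38, and the deposited matrices hold raw UMI counts per gene and cell, with a cell table of state, cluster, phase and replicate. Per the methods, cells with very many detected genes were removed as likely doublets, and no doublet caller was run here. ATAC reads were aligned by the authors with Bowtie2 2.3.4.1 and handled with SAMtools 1.1, and the deposited MACS2 2.1.1.20160309 peak lists give a fold enrichment and the -log10 q-value of each peak, library by library. No column of per-sample values was set aside.

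From these files, counts were summed per state, cluster and library and scaled by the totals. A gene was compared between states with at least 20 CPM in 1 state and called at 2-fold or more in every replicate, library or, for WM983B, the library. Intervals are 95% Poisson intervals and cover counting error only. Treatments were tested with edgeR 4.0.16 (R 4.3.3, TMM, filterByExpr, quasi-likelihood, a replicate term, Benjamini-Hochberg adjustment at 0.05), and the state contrast on 16 sums with a library term. That fit had an infinite prior df and 4 residual df. DESeq2 1.42.0 was an alternative. With 2 libraries a group the p-values measure the spread between these libraries, which share wells. Libraries of one replicate deviated together (Pearson r of their deviations from the group means 0.255 to 0.366 over all cells, 0.246 to 0.358 in drug-susceptible and 0.025 to 0.145 in primed cells), and the shared wells come from the methods.

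Peaks of at least 3 libraries were merged with bedtools 2.31.1. A region took each library's highest fold enrichment (0 where no peak was listed), and log2(value + 1) was tested with limma 3.58.1 without a replicate term. Differences on this scale understate changes of low regions, and read depth behind a peak is not in the lists. Positions come from GENCODE 44, and 79 of 79 chromosome names of the peaks were in the reference. The fits were tested on simulated data.

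The genes and lists were chosen with earlier results of these data known. All 10 genes were compared throughout. The called genes are named, and those not called are named in part. From each list the 3 most changed members past the threshold in each direction are named, and for each gene the 2 genes with the most similar cluster pattern. Other settings tried were G1 cells only, barcoded cells, channels weighted equally, other minimum levels, TMM or library totals, DESeq2, no filter, no replicate term, other cluster definitions, other peak settings and each library left out.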

Additional observations from a re-analysis of the deposited data

Results flagged for a closer look

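A single channel, which is part of a sample and not a sample of its own, stood apart from the others of its replicate by Dixon's criterion. S100A13 in the drug-susceptible cells of r2 was at 286 CPM in channel 5 and at 238 to 244 CPM in the other 3 channels. With 40 groups of 4 channels examined, chance alone marks about 1 in 20 groups.

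The difference between treated and untreated libraries was not the same in primed and drug-susceptible cells for several genes, by edgeR's interaction test. Values are the log2 difference in primed minus that in drug-susceptible cells. TGFB1 primed cells were mostly in cluster 4 and untreated ones in cluster 10, so treatment and cluster cannot be told apart there. For TGFB1 the differences were -1.83 for S100B, -1.80 for S100A4, -1.77 for S100A6, -1.57 for S100A3, -0.94 for S100A13, -0.79 for S100A1, -0.52 for S100A2 and 0.29 for S100A10. For TGFBRi they were 1.09 for S100A2, -0.56 for S100A4 and 0.33 for S100A13. For PI3Ki they were -0.97 for S100A16, -0.69 for S100A6 and -0.38 for S100A10. The differences for S100B, S100A1, S100A4, S100A6 and S100A13 under TGFB1 passed in all 12 alternatives, and each of the others was lost in at least 1.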

How the results depend on the processing

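The counts below are of the 10 S100 genes (11 regions for chromatin) past the threshold, set against the values in the report. For most settings the share of all genes or regions called is not given here. A changed count therefore need not be particular to the S100 genes. Of the state comparisons, the first experiment gave 8 to 9 genes when a channel was left out, and in the treatment experiment cluster 10 as the only primed cluster gave 1 gene in place of 3. The cause of each change below was not tested.

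The replicate term, kept because cells of a well were split over the plates, mattered for the weaker treatments. With no replicate block, TGFBRi gave 0 genes over all cells (4 with it) and 1 in drug-susceptible cells (3 with it), and PI3Ki gave 3 over all cells (6) and 3 in drug-susceptible cells (5). Without the library term, the state difference under TGFBRi and under PI3Ki gave 0 genes each (3 each with it), and 6 for TGFB1 (8). The chromatin libraries share only a number: the deviations of same-numbered libraries had r of -0.012 to 0.095 over 18 pairs. A replicate block there left 0, 1 and 1 regions called in EGFR_High, NGFR-High and EGFR-NGFR-High.

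Other settings moved these counts. G1 cells alone gave 1 gene for TGFBRi over all cells. DESeq2 gave 3 for PI3Ki in drug-susceptible cells, and 5 for TGFB1 and 1 for TGFBRi in the state difference. Library totals and no filter on low counts each gave 5 for TGFBRi in drug-susceptible cells (3). With library totals all genes there went from 218 higher and 285 lower to 228 higher and 405 lower. For EGFR_High, quantile normalization and the 50000 highest peaks each gave 1 region (0), and the 50000 highest peaks gave 2 for NGFR-High (1). Signs turned for small log2 values that were not called. With library totals these were S100B under TGFB1 over all cells (0.00), S100A11 under TGFBRi over all cells (-0.01), S100A16 under PI3Ki in drug-susceptible cells (-0.06) and S100A4 in the state difference under PI3Ki (0.10). In G1 cells S100A11 under TGFBRi in drug-susceptible cells came to 0.03, and with no filter S100A13 under PI3Ki in primed cells to -0.00. With quantile normalization the start regions of S100A6 (0.02) and S100A13 (second region, 0.09) turned in EGFR_High, and those of S100B (-0.03), S100A2 (-0.00) and S100A11 (-0.03) in EGFR-NGFR-High.

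Leaving out 1 library at a time, the counts ran from 1 to 4 for TGFBRi over all cells (1 without untreated replicate 1) and 1 to 4 in drug-susceptible cells (the same library), 0 to 2 in primed cells (0 without untreated replicate 1) and 1 to 4 in the state difference (1 without TGFBRi replicate 2). For PI3Ki they ran from 2 to 6 over all cells and 2 to 5 in drug-susceptible cells (2 without PI3Ki replicate 2, 3 without untreated replicate 2). For chromatin they ran from 0 to 1 in EGFR_High (1 without EGFR-NGFR-High replicate 1) and 0 to 1 in NGFR-High (0 without NGFR-High replicate 1).

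Log2 values that turned sign when 1 library was left out had these ranges. Under TGFB1 they were -0.09 to 0.07 for S100B over all cells, -0.08 to 0.17 for S100A10 in drug-susceptible cells and -0.12 to 0.02 for S100A11 in the state difference. Under TGFBRi over all cells they were -0.15 to 0.22 for S100A2, -0.14 to 0.10 for S100A6, -0.10 to 0.11 for S100A11 and -0.25 to 0.07 for S100A16. In drug-susceptible cells they were -0.11 to 0.09 for S100A11 and -0.22 to 0.05 for S100A16. In primed cells they were -0.39 to 0.06 for S100A1, -0.20 to 0.03 for S100A10 and -0.02 to 0.37 for S100A6, and in the state difference -0.20 to 0.34 for S100A3. Under PI3Ki they were -0.27 to 0.07 for S100A2 and -0.03 to 0.09 for S100A16 in drug-susceptible cells. In primed cells they were -0.12 to 0.27 for S100A1, -2.84 to 0.51 for S100A3 and -0.24 to 0.26 for S100A13. In the state difference they were -0.02 to 0.15 for S100B, -1.58 to 2.88 for S100A3 and -0.23 to 0.29 for S100A4. In EGFR-NGFR-High they were -0.24 to 0.03 for the region shared by S100A1 and S100A13, -0.03 to 0.11 and -1.45 to 0.07 for the second and the third region of S100A13, -0.13 to 0.19 for S100A11, -0.04 to 0.11 for S100A2 and -0.09 to 0.11 for S100B. In EGFR_High the second region of S100A13 ran from -0.12 to 0.03.

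Depth limits S100A3 most, which had 9 and 3 UMIs in the primed cells of the PI3Ki libraries.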

Other observations

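S100A8 and S100A9, which form calprotectin in neutrophils and stressed keratinocytes, were close to absent in the first experiment except in a single cell. S100A9 had 615 UMIs in 40 cells, and 478 of them (77.7%) lay in 1 primed cell of channel 2. The same cell held 84 of the 115 S100A8 UMIs (73.0%), which were spread over 17 cells in all. Its total of 79225 UMIs was above the primed median of 58253. What this cell was, was not tested.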
